A study of Homo sapiens with 13 samples.

Results

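Very long genes were taken as the RefSeq protein-coding genes (GRCh38.p14, the hg38 build) on chromosomes 1 to 22 whose annotated span, from the first to the last base of all transcripts, is 1 Mb or more. Of 19122 protein-coding genes, 66 met the rule. Their spans ran from 1003 kb to 2474 kb, with a median of 1228 kb, added up to 91.0 Mb and did not overlap each other. RBFOX1, a neuronal splicing regulator, is the longest. On a list of 28 genes at common fragile sites, drawn from general knowledge and not from U2OS cells, 17 were long enough, among them FHIT, WWOX, LRP1B and DLG2. GPHN, the gephyrin gene, and RANBP2, a nuclear pore gene, were set apart from these and from the other 47 genes.

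DRIP-seq, which pulls down DNA-RNA hybrids with the antibody S9.6, was done on the osteosarcoma cell line U2OS after transfection of a control siRNA (siCtrl, genotype given as WT) or an siRNA against REXO4 or RNaseH1 (siREXO4 and siRNaseH1, given as knockdowns). Each transfection has 3 S9.6 libraries and 1 input, and siCtrl also has 1 IgG library, 13 samples in all. Peaks were available as 1 list per transfection, called by the authors on the 3 merged S9.6 libraries. The lists carry no replicate error and allow no test between conditions. All intervals are 95% intervals for counting error only. Transcripts were not measured, so neither the cell line nor the knockdowns could be checked from the lists.

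An R-loop is a stretch of DNA in which RNA pairs with the template strand and the other strand is left single. Such hybrids form most often near the starts of transcribed genes, at G-rich sequence and near transcription ends. RNaseH1 degrades the RNA of the hybrid, and REXO4 belongs to a family of exonucleases. Genes over 1 Mb include many neuronal adhesion molecules, receptors and scaffolds, and a passage of the polymerase through such genes takes many hours. Common fragile sites are regions that break when replication is slowed. Many lie in such genes, and collisions of replication with transcription and R-loops have been studied there as a source of breaks. GPHN encodes gephyrin, a synaptic scaffold that also makes the molybdenum cofactor in other tissues, and RANBP2 encodes a nuclear pore protein of all cells.

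The windows around gene starts show where the peaks of highest fold in the knockdown lists lay and where no peak was found. The promoter table, from RefSeq with the build GRCh38.p14, gives 250 bases before and 50 after a start, and it held 54 of the 66 genes. A peak overlapped 1 of these 54 windows in siCtrl, 2 in siREXO4 and 1 in siRNaseH1, against 1.66, 15.5 and 15.9% of all 15100 protein-coding windows. For some of the 54, such as DLG2, RBFOX1 and FHIT, the listed start lies far inside the span. These windows are thus not all at the outer boundary, where other transcripts of the gene may start. The first 4 windows printed lay under or beside a peak with a high fold or at a fragile site gene, and the last 3 (GPHN, RANBP2, FHIT) had none. Each is written 5′ to 3′ on the strand of its gene, and capitals mark runs of 4 or more G or C. DAB1 (chr1:58546677-58546976, minus strand) shares its window base for base with OMA1. The others are WWOX (chr16:78099404-78099703, plus), PALS1 within GPHN (chr14:67241185-67241484, plus), SOWAHC within RANBP2 (chr2:109614114-109614413, plus), GPHN (chr14:66507897-66508196, plus), RANBP2 (chr2:108719232-108719531, plus) and FHIT (chr3:60080860-60081159, minus).
DAB1: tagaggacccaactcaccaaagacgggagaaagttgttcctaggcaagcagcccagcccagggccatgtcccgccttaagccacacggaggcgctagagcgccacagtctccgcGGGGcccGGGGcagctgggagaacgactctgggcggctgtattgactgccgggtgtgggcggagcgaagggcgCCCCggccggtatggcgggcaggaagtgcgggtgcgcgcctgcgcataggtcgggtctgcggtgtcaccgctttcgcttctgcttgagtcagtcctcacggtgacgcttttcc
WWOX: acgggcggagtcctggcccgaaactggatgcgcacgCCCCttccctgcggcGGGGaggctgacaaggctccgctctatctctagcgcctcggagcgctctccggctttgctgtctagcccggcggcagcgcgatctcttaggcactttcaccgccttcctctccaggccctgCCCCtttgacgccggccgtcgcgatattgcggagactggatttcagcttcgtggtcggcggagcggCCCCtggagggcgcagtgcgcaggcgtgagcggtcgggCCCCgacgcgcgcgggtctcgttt
PALS1: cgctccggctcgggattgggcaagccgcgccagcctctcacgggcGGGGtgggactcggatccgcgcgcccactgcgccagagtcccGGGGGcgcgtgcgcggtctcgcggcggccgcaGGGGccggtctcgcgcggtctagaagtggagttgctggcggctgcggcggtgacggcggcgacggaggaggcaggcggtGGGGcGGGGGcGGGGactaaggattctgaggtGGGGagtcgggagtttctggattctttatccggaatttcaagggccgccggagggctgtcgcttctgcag
SOWAHC: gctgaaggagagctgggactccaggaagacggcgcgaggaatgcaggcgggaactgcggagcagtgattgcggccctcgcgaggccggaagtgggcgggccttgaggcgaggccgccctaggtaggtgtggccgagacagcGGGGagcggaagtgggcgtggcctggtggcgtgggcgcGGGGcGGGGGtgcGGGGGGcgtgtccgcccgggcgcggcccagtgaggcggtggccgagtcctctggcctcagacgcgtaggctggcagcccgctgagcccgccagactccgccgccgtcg
GPHN: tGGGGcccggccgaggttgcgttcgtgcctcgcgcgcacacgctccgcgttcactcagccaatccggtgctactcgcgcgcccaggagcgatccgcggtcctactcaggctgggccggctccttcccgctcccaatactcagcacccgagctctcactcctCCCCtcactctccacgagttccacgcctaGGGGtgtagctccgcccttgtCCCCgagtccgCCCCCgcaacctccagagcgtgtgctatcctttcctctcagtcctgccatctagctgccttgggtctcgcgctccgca
RANBP2: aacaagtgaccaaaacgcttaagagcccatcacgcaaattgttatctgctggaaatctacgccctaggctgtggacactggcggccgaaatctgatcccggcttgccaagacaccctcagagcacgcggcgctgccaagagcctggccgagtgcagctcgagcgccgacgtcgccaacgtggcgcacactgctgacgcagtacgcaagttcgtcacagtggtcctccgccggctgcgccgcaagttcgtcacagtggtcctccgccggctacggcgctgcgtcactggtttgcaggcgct
FHIT: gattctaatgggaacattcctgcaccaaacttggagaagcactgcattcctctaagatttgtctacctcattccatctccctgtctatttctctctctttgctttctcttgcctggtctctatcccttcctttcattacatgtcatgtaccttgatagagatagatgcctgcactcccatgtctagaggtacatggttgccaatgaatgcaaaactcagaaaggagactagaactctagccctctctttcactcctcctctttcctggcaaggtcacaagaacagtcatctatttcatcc

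Most windows with a peak were above the median of all windows in GC, and 1 was below it. DAB1 had 66% GC and 27 CG dinucleotides, WWOX 69% and 38, PALS1 72% and 40, and SOWAHC 74.7% and 36, against medians of 63% and 22 over all windows. Of the windows with a peak that are not printed, ARG2 (71% and 31) and PLEK2 (69.3% and 30) within GPHN and SEPTIN10 within RANBP2 (72% and 33) were also above both medians. RDH11 within GPHN, with a siRNaseH1 peak of fold 5.10, was at 55% GC with 13 CG dinucleotides, below both. The GPHN window, without a peak, was at 67% GC with 30 CG dinucleotides, and that of RANBP2 at 62% with 31. The FHIT window stood at 44% GC with 0 CG dinucleotides, and its listed start lies well inside the FHIT span. Runs of GGGG on the gene strand occurred in 80.6% and runs of CCCC in 79.7% of all windows. PALS1 had 7 G runs and no C run, WWOX 1 G run and 4 C runs, and the RANBP2 and FHIT windows had neither. Over the 54 windows of very long genes, those at starts inside the span included, the median GC content was 57.5%. The highest of these, in KCNIP4 at 83.3%, and the AUTS2 window, at 82.3% with 55 CG dinucleotides, had no peak in any list.

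Very long genes held few peaks in every transfection. A peak is a stretch where MACS2 found more S9.6 fragments than its local background, and it was given to a gene when its summit, the highest point, lay in the span. The 66 genes held 46 siCtrl peaks, 75 siREXO4 peaks and 97 siRNaseH1 peaks out of 4423, 12475 and 20580 on chromosomes 1 to 22. This is 0.506 peaks per Mb in siCtrl (interval 0.370 to 0.675), 0.824 in siREXO4 (0.649 to 1.03) and 1.07 in siRNaseH1 (0.864 to 1.30). Shorter protein-coding genes held 2.22, 7.34 and 13.9 peaks per Mb. The density in very long genes was thus 0.228, 0.112 and 0.0768 times that in shorter genes, and the intervals did not overlap in any list.

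GPHN and RANBP2 carried much of the siRNaseH1 number. Together they held 6 of 46 siCtrl peaks (13.0%), 16 of 75 siREXO4 peaks (21.3%) and 54 of 97 siRNaseH1 peaks (55.7%, interval 45.8 to 65.1%). The other 64 genes held 40, 59 and 43 peaks over 88.6 Mb, or 0.451, 0.666 and 0.485 per Mb, with overlapping intervals between siCtrl and siRNaseH1 (0.322 to 0.615 and 0.351 to 0.654). With each list limited to its 4423 peaks of lowest p, all 66 genes held 0.143 siREXO4 and 0.0660 siRNaseH1 peaks per Mb. At that length both densities stood below the siCtrl value of 0.506.

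**Figure D1:**
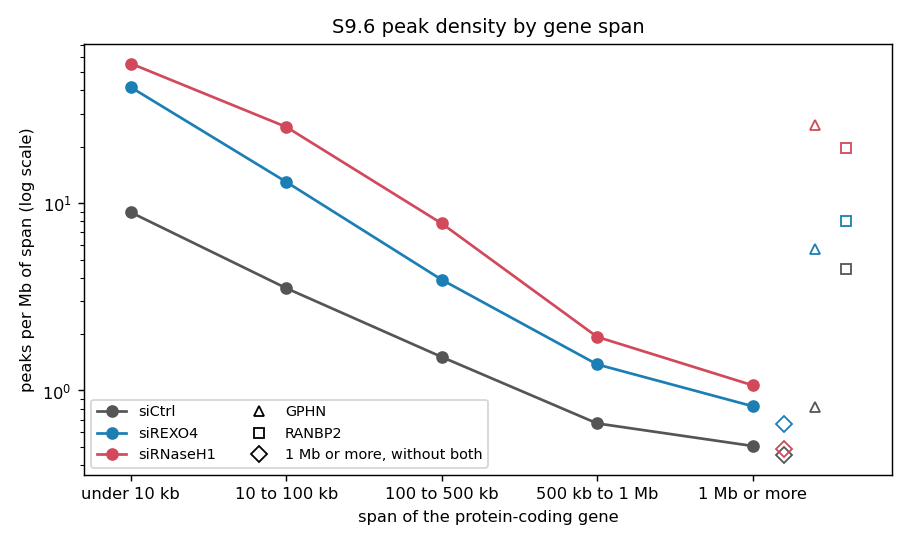
Peaks per Mb of span (log scale) against the span class of protein-coding genes, for the siCtrl, siREXO4 and siRNaseH1 lists. Filled points are all genes of a class, and open symbols at the right are GPHN, RANBP2 and the 64 very long genes without both, whose siRNaseH1 density of 0.485 lies near the siCtrl value of 0.451.

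Density was lower in each longer span class, as the plot by span shows. In the siRNaseH1 list it was 55.6 peaks per Mb in genes under 10 kb, 25.5 from 10 to 100 kb, 7.79 from 100 to 500 kb, 1.93 from 500 kb to 1 Mb and 1.07 at 1 Mb or more. The siCtrl densities in the same order were 8.93, 3.52, 1.51, 0.667 and 0.506. The 3 genes just under the threshold were DLGAP2 with no peak, CAMTA1 with 2 siCtrl, 5 siREXO4 and 5 siRNaseH1 peaks, and ASTN2 with 1, 3 and 1. Just over it were NCKAP5 with no peak, ADAMTSL1 with 2, 1 and 1, and NKAIN2 with 0, 2 and 0.

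The regions around these genes held more peaks than the genes. In the 1 Mb on each side of the 64 genes, outside all very long genes, there were 1.03 peaks per Mb in siCtrl (interval 0.859 to 1.23), 2.91 in siREXO4 (2.61 to 3.23) and 4.58 in siRNaseH1 (4.21 to 4.98). Inside the genes the density was 0.437, 0.229 and 0.106 times as high. DLG2, a synaptic scaffold gene (chromosome 11, 83455012 to 85628373), held 1, 0 and 1 peaks, while its flanks held 5, 20 and 32. CNTNAP2, a neuronal adhesion gene (chromosome 7, 146116801 to 148420998), held none in 2304 kb, and its flanks held 4, 16 and 25. ERBB4, a receptor tyrosine kinase gene, was a contrary case with 2 siCtrl peaks inside and no peak in its flanks in any list.

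Counted by gene, a peak was found in 27 of the 66 genes in siCtrl, 32 in siREXO4 and 26 in siRNaseH1. Over all protein-coding genes, 10.6, 28.4 and 34.4% held a peak. A very long gene offers more bases to hold a peak, and the siRNaseH1 share of 39.4% is near the background. With lists of equal length the genes with a peak numbered 9 in siREXO4 and 3 in siRNaseH1. The share over all protein-coding genes was not computed at that length, so these counts are not placed against a background. At least 3 peaks were found in 5, 8 and 7 genes, against 0.617, 3.94 and 11.1% of all protein-coding genes. No peak in any list was found in 20 genes, and 11 held a peak in every list.

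Compared with siCtrl, 16 genes held more siRNaseH1 peaks and 16 held fewer, whereas 31.8% of all protein-coding genes held more and 2.38% fewer. For siREXO4, 24 genes held more and 11 fewer, against 24.3 and 3.4% of all genes. Most of these differences are of 1 or 2 peaks and lie within counting error. GPHN in siRNaseH1 is an exception, with 0.815 peaks per Mb in siCtrl (interval 0.0206 to 4.54) and 26.1 in siRNaseH1 (17.8 to 36.8). RANBP2 is the other, with 4.45 (1.45 to 10.4) and 19.6 (12.3 to 29.7). Neither difference holds with lists of equal length, where GPHN held 2.44 siRNaseH1 peaks per Mb, within the siCtrl interval, and RANBP2 1.78, below its siCtrl value.

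**Figure D2:**
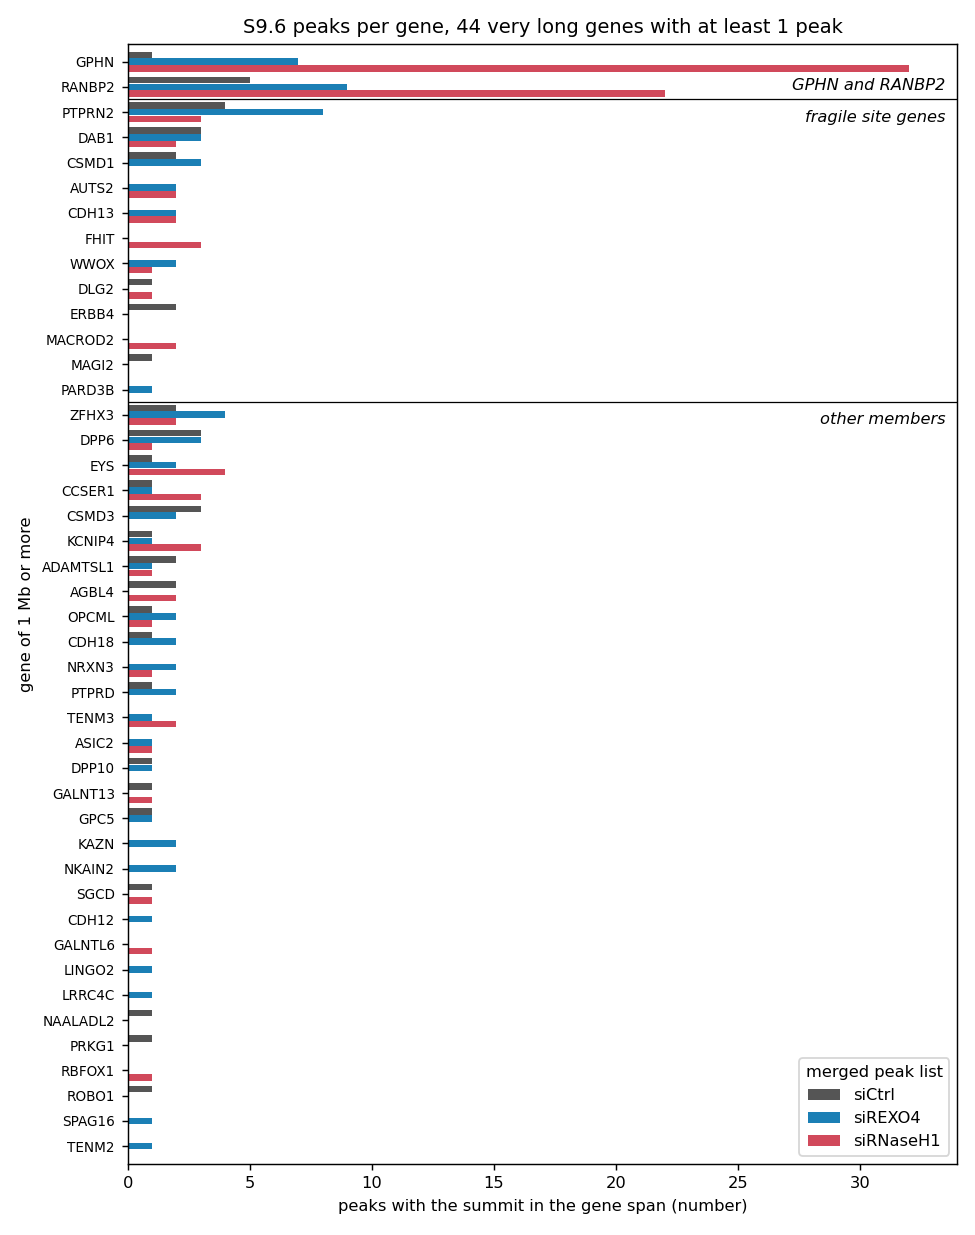
Number of peaks with the summit in the span, for 44 very long genes with at least 1 peak, with 1 bar for each merged list. GPHN reaches 32 and RANBP2 22 in siRNaseH1, whereas no other gene exceeds 8 in any list (PTPRN2, siREXO4).

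The role lists are read against 27, 32 and 26 of all 66 genes with a peak, and 10.6, 28.4 and 34.4% of all protein-coding genes. The 19 cell adhesion genes, such as CDH13, CSMD1 and CNTNAP2, held a peak in 5 genes in siCtrl, 9 in siREXO4 and 4 in siRNaseH1, at 0.293, 0.587 and 0.220 peaks per Mb. The 8 receptors and channels, among them PTPRN2 and ERBB4, had 4, 3 and 4 genes with a peak, at 0.694, 0.955 and 0.781 per Mb. The list headed scaffolds and cytoskeleton (5 genes: DAB1, EYS, DLG2, MAGI2 and PARD3B) had 4, 3 and 3, and the 7 kinase and signalling genes had 4, 3 and 2. EYS, a retinal gene, held 1, 2 and 4 of the 6, 6 and 7 peaks under the scaffold heading. It fits that heading loosely or not at all. The same holds for CSMD1 under cell adhesion, ASIC2 under kinases and signalling and GALNTL6 under receptors and channels. Counts and densities by role thus describe the lists as drawn, not the roles they are named for. A list of 5 nuclear and RNA-related genes held a peak in 0 genes in siCtrl, 2 in siREXO4 and all 5 in siRNaseH1, with 0, 4 and 9 peaks. With 5 genes, nothing particular to the list is read from these counts. Its members differ in what they do. FHIT is a dinucleotide hydrolase, WWOX an oxidoreductase, MACROD2 an ADP-ribosylhydrolase, AUTS2 a Polycomb-associated regulator and RBFOX1 a splicing factor. The first 4 are on the fragile site list as well. In no role list were 22 genes, GPHN and RANBP2 among them. The siRNaseH1 density of the 5 nuclear and RNA-related genes was 1.08 per Mb, on 9 peaks. It was above the 0.485 of all very long genes without GPHN and RANBP2, which include them, and below the 13.9 of shorter protein-coding genes.

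The 17 fragile site genes were compared with the other 47. These 47 are genes off the list, and whether some of them also lie at fragile sites was not checked. Over 26.5 Mb they held 15 siCtrl, 24 siREXO4 and 18 siRNaseH1 peaks, or 0.566 (interval 0.317 to 0.934), 0.906 (0.580 to 1.35) and 0.679 (0.403 to 1.07) per Mb. The other 47 held 25, 35 and 25 peaks over 62.1 Mb, or 0.402 (0.260 to 0.594), 0.563 (0.392 to 0.784) and 0.402 per Mb. The ratio was 1.41, 1.61 and 1.69, and the intervals overlapped in every list. At a fold of at least 5 the siRNaseH1 ratio turned to 0.837. A peak was found in 7, 8 and 9 fragile site genes and in 18, 22 and 15 of the others. The 9 genes most often named as large fragile sites held fewer peaks in siCtrl and siREXO4, at 0.190 and 0.317 per Mb, than the other 47, and 0.570 in siRNaseH1.

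**Figure D3:**
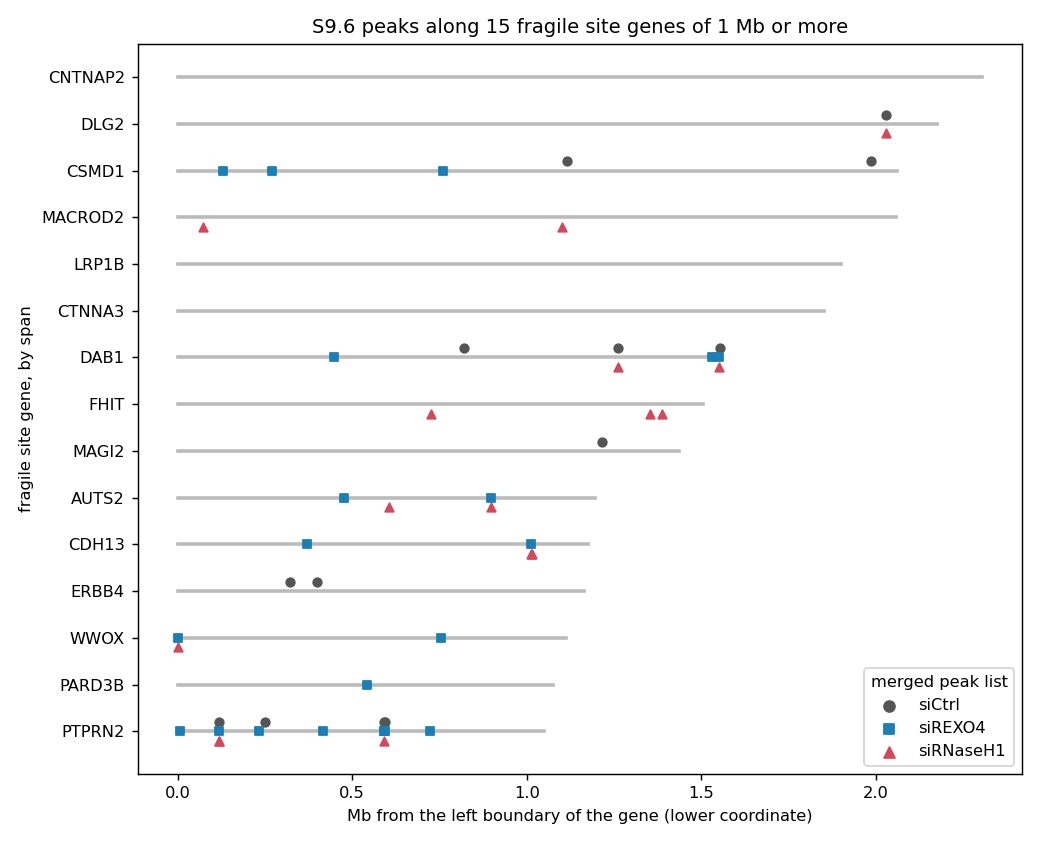
Peak summits along 15 fragile site genes, in Mb from the lower-coordinate boundary of each gene, with circles for siCtrl, squares for siREXO4 and triangles for siRNaseH1. Most summits are scattered through the gene bodies, PTPRN2 holds 15 of them, and LRP1B, CTNNA3 and CNTNAP2 hold none.

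PTPRN2, a receptor-type phosphatase gene of secretory vesicles (chromosome 7, 157539056 to 158587823), held the most, with 4 siCtrl, 8 siREXO4 and 3 siRNaseH1 peaks. One locus, 119 kb from its lower boundary, had a peak in all lists, with folds of 4.24, 7.20 and 4.22. The fold is the authors' enrichment at the summit over local background. A second group of peaks stood at 590 to 593 kb, where siCtrl had 2 peaks (5.71 and 4.39), siREXO4 3 (4.91, 4.57 and 7.06) and siRNaseH1 1 (3.96). All 15 PTPRN2 peaks lay in PTPRN2 alone, away from any other annotated gene. Without PTPRN2 the ratio of fragile site to other genes was 1.07, 1.12 and 1.46 in the siCtrl, siREXO4 and siRNaseH1 lists.

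DAB1, an adaptor gene of the reelin pathway (chromosome 1, 56994778 to 58546726, minus strand), held, at its start, the peak of highest fold among very long genes in siREXO4 and in siRNaseH1. In siCtrl the peak there was below the median fold of 5.27, and the highest was in OPCML, at 7.47. The peak was 546 bp wide with a fold of 5.13 in siCtrl, 1286 bp with 28.0 in siREXO4 and 1222 bp with 43.1 in siRNaseH1. The summits lay 237, 283 and 301 bp past the start, and 17, 109 and 135 fragments stood at them. OMA1, a mitochondrial protease gene, starts at the same base on the same strand, so the peak cannot be given to one of them. Elsewhere in the span, DAB1 had 2 siCtrl peaks, 2 siREXO4 peaks, 1 of them within OMA1, and 1 siRNaseH1 peak, with folds of 4.67 to 5.86. The siCtrl and siRNaseH1 peaks 292 kb past the start overlapped.

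WWOX (chromosome 16, 78099654 to 79212667, plus strand) was the other fragile site gene with a peak at its boundary. No siCtrl peak lay there, and siREXO4 had a peak of 643 bp with a fold of 5.84 and siRNaseH1 one of 458 bp with 5.71. Their summits stood 0.105 and 0.309 kb past the start, and the peaks overlapped. A second siREXO4 peak, 755 kb into the gene, had a fold of 3.89.

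FHIT (chromosome 3, 59747277 to 61251452), at a classical fragile site, held 3 siRNaseH1 peaks and none in the other lists. They had folds of 4.24, 4.67 and 3.97 and 9, 10 and 11 fragments. MACROD2 likewise held peaks in siRNaseH1 alone, with folds of 4.21 and 6.36. A difference from 0 to 2 or 3 peaks is within counting error.

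CSMD1, a gene of complement-type domains, held 2, 3 and 0 peaks at 5 separate places. ERBB4 held 2 siCtrl peaks only, MAGI2, a membrane scaffold gene, 1 siCtrl peak, and PARD3B, a polarity gene, 1 siREXO4 peak. In DLG2 the 1 siCtrl peak (fold 6.10) and the 1 siRNaseH1 peak (4.63) overlapped, 144 kb from the outer boundary on the side of the start.

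AUTS2 held 2 siREXO4 and 2 siRNaseH1 peaks, and CDH13, a cadherin gene, likewise 2 and 2, with no siCtrl peak in either. None of these overlapped between the lists, although pairs stood close together. In AUTS2 a siREXO4 summit at 898.0 kb and a siRNaseH1 summit at 897.4 kb from the start were neighbours. In CDH13 the siREXO4 summit at 1012 kb from the lower boundary lay beside siRNaseH1 summits at 1013 and 1015 kb. LRP1B, an endocytic receptor gene, CTNNA3, an alpha-catenin gene, and CNTNAP2 held no peak in any list, over spans of 1900, 1851 and 2304 kb. Among the other 47 genes, 17 held none.

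Of the other 47 genes, ZFHX3, a zinc finger and homeobox transcription factor gene, and DPP6, a potassium channel subunit gene, had loci found in every list. The ZFHX3 locus, 640 kb from the outer boundary on the side of the start, had folds of 5.27 in siCtrl, 3.95 in siREXO4 and 4.67 in siRNaseH1. A second ZFHX3 locus near 605 kb from the same boundary held 2 siREXO4 peaks (4.82 and 5.16) and 1 siRNaseH1 peak (4.23) without a siCtrl peak. The DPP6 locus, 826 to 828 kb from the outer boundary on the side of the start, held 2 siCtrl peaks (7.30 and 6.87), 2 siREXO4 peaks (9.36 and 5.07) and 1 siRNaseH1 peak of 1406 bp (6.36). The listed starts of both genes lie inside their spans, so these are not distances from the starts. Its folds stood above the list medians of 4.83, 4.98 and 5.10 in each list.

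EYS, a retinal gene, held 1, 2 and 4 peaks, and the siCtrl peak overlapped 1 of the siRNaseH1 peaks near its far end. CCSER1 held 1, 1 and 3, including a siRNaseH1 peak 354 bp past its start with a fold of 5.24. KCNIP4, a potassium channel partner gene, held 1, 1 and 3, and its 3 siRNaseH1 peaks all lay in PACRGL, a shorter gene within it. CSMD3 held 3, 2 and 0 peaks, and both siREXO4 peaks overlapped siCtrl peaks. ADAMTSL1 held 2, 1 and 1, AGBL4, a carboxypeptidase gene, 2, 0 and 2, OPCML, an adhesion gene, 1, 2 and 1, and CDH18, a cadherin gene, 1, 2 and 0.

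GPHN (chromosome 14, 66508147 to 67735355, plus strand, 1227 kb) held 1 siCtrl, 7 siREXO4 and 32 siRNaseH1 peaks, or 0.815, 5.70 and 26.1 per Mb. Its siRNaseH1 density was 38.4 times that of the fragile site genes and 10.4 times that of its own flanks, which held 2, 6 and 5 peaks. GPHN and RANBP2 were set apart with earlier results of these data known. Such multiples, also for parts of their spans, only describe the 2 genes and are no test. The annotated span of GPHN contains or overlaps 13 other protein-coding genes, which cover 36.2% of it. Among the 64 other genes no span had more than 2 such genes or more than 9.48% of its length under them, and 50 of the 66 had none. RANBP2 was the second such gene, with 6 others over 64.7% of the span. Spans join all annotated transcripts, and the reach of each transcript was not examined. The other genes may thus lie beyond the end of some transcripts of GPHN or RANBP2.

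**Figure D4:**
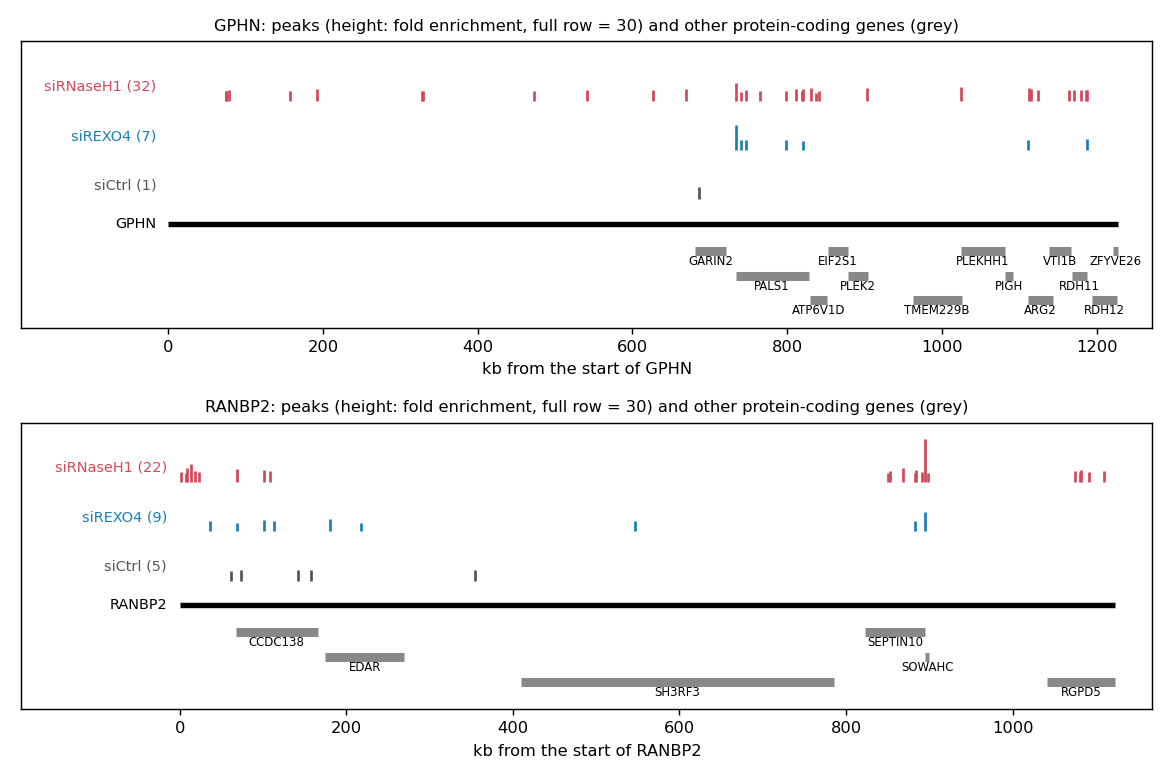
Peaks along GPHN and RANBP2 in kb from the start of each gene, as vertical lines whose height is the fold enrichment (a full row is 30), with the other protein-coding genes of the span in grey. In GPHN the 7 siREXO4 peaks stand over PALS1, ARG2 and RDH11, and 11 of 32 siRNaseH1 peaks lie before the first other gene.

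The GPHN peaks fell mostly on the genes within it. All 7 siREXO4 peaks and 21 of 32 siRNaseH1 peaks lay inside or within 2 kb of another protein-coding gene, as did the 1 siCtrl peak, in GARIN2 (fold 6.06). PALS1, a cell polarity scaffold gene of 94.6 kb, held 0, 5 and 8 peaks. The PALS1 peak at the start had a fold of 16.3 in siREXO4, with the summit 101 bp past the start, and 10.6 in siRNaseH1, 122 bp past it. ATP6V1D, a proton pump subunit gene, held 0, 0 and 3 peaks, ARG2, an arginase gene, 0, 1 and 3, and RDH11, a retinol dehydrogenase gene, 0, 1 and 4. At the start of ARG2 the folds were 4.86 and 6.26. Every siREXO4 peak in GPHN was overlapped by a siRNaseH1 peak, and none by a siCtrl peak.

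The remaining 11 siRNaseH1 peaks lay in the first 679 kb of GPHN, before GARIN2, where siCtrl and siREXO4 had none. This stretch held 16.2 siRNaseH1 peaks per Mb (interval 8.08 to 29.0), 23.8 times the density in the fragile site genes. The peaks had folds of 3.97 to 5.94 and 9 to 13 fragments each, and the first lay 74.4 kb past the start. The GPHN start window had no peak. Of the 11, 9 lay in GPHN alone and 2 within noncoding genes inside it.

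RANBP2 (chromosome 2, 108719482 to 109842301, plus strand, 1123 kb) held 5, 9 and 22 peaks, or 4.45, 8.02 and 19.6 per Mb. Its siRNaseH1 density was 28.8 times that of the fragile site genes and 1.45 times that of its flanks, where 3, 14 and 27 peaks lay. Of its peaks, 3 of 5, 8 of 9 and 16 of 22 were inside or within 2 kb of another protein-coding gene. The first 65.3 kb, before CCDC138, held 1, 1 and 6 peaks, or 91.9 per Mb in siRNaseH1 (interval 33.7 to 200). These 6 lay from 1.47 to 23.0 kb past the start, with folds of 3.78 to 10.2, and none overlapped a siCtrl or siREXO4 peak.

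Among the genes within RANBP2, SOWAHC and SEPTIN10, a septin gene, start next to each other on opposite strands. A peak over the SOWAHC start had a fold of 11.4 over 849 bp in siREXO4 and 29.2 over 1963 bp in siRNaseH1. It had 36 and 107 fragments, and no siCtrl peak lay there. Neither peak covered the SEPTIN10 start, although both summits stood within 2 kb of it. SEPTIN10 held 0, 2 and 7 peaks and SOWAHC 0, 1 and 2, the start peak counted for both. CCDC138 held 3 in each list, EDAR, a receptor gene of skin appendages, 0, 2 and 0, and RGPD5 0, 0 and 5. RGPD5 is 1 of 7 RGPD genes, which are partial copies of RANBP2. The treatment of reads that match several copies is not given in the sources used here, so the 5 RGPD5 peaks and those in the first part of RANBP2 are uncertain in place.

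GPHN and RANBP2 differed from the others in the place of the peaks and in the genes that lie in the span. Other protein-coding genes cover 36.2 and 64.7% of these 2 spans, against at most 9.48% of any other. Peaks in the rest thus had little room to fall on another protein-coding gene, and the places only describe the spans. In the other 64 genes, 38 of 40 siCtrl, 52 of 59 siREXO4 and 34 of 43 siRNaseH1 peaks lay in the gene alone, over 2 kb from its boundaries and from every other annotated gene. At an own boundary there were 1, 2 and 3 peaks, which are the DAB1, WWOX and CCSER1 starts. No peak stood at the far end of any of them. In GPHN 0 of 1, 0 of 7 and 9 of 32 peaks lay in the gene alone, and in RANBP2 2 of 5, 1 of 9 and 5 of 22. For the 64 genes, the median distance from a summit to the nearest own boundary was 288 kb for siCtrl, 320 kb for siREXO4 and 159 kb for siRNaseH1.

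**Figure D5:**
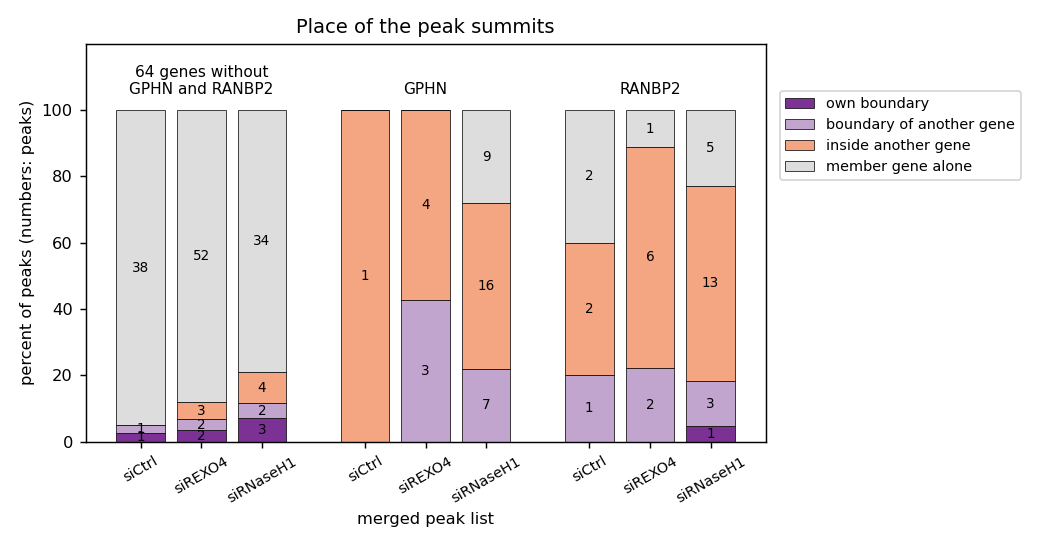
Share of peaks by place of the summit, in percent, with the number of peaks written in each segment, for the 64 very long genes without GPHN and RANBP2 and for these 2 genes. Peaks in the gene alone make up 38 of 40, 52 of 59 and 34 of 43 in the 64 genes, and 9 of 32 siRNaseH1 peaks in GPHN.

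Over all 66 genes, 3 of 46 siCtrl peaks (6.52%), 9 of 75 siREXO4 peaks (12.0%) and 16 of 97 siRNaseH1 peaks (16.5%) lay within 2 kb of a boundary of any gene. Over whole lists the shares were 27.8, 44.3 and 35.4%. With lists of equal length the siREXO4 share was 5 of 13 (38.5%), against 67.2% of the whole list. That of siRNaseH1 was 5 of 6 (83.3%), against 60.8% of the whole list. With only 6 peaks, 3 in GPHN and 2 in RANBP2, its place below the whole list is not shown at that length. In genes of 500 kb to 1 Mb they were 7.62, 15.1 and 14.0%, near those of the longer genes. For genes with a known strand among the 64, 13 of 29, 18 of 40 and 15 of 36 peaks lay in the first 50% of the span, all with intervals that include an even split.

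Sharing between lists was low in these genes. When overlapping peaks of the 3 lists were joined, the 66 genes held 177 loci, of which 144 (81.4%, interval 75.0 to 86.4%) were in 1 list only, 29 in 2 lists and 4 in all 3. For loci elsewhere on the autosomes, 73.7% were in 1 list only. The 4 shared loci were the DAB1 start and single places inside PTPRN2, ZFHX3 and DPP6. In the fragile site genes, 37 of 46 loci were in 1 list only, in GPHN 25 of 32 and in RANBP2 28 of 32.

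Of the siREXO4 peaks in very long genes, 64 of 75 (85.3%) had no siCtrl peak over them, and of the siRNaseH1 peaks 88 of 97 (90.7%). In the whole lists the shares were 85.4 and 90.2%. With lists of equal length they were 6 of 13 (46.2%) and 5 of 6 (83.3%) in very long genes, against 74.9 and 75.6%. Both comparisons use the same siCtrl list. Such gained siREXO4 peaks were also gained in siRNaseH1 in 18 of 64 cases (28.1%, interval 18.6 to 40.1%), against 48.8% of all gained siREXO4 peaks. Among them were 7 of 7 in GPHN, 4 of 9 in RANBP2, 2 of 19 in fragile site genes, at WWOX and PTPRN2, and 5 of 29 in the rest. In the other direction 18 of 88 gained siRNaseH1 peaks (20.5%) were also gained in siREXO4, against 28.0% overall. That share was 40.0% of 5 peaks with lists of equal length and 13.0% at a fold of at least 5. Without GPHN and RANBP2 the siREXO4 share was 14.6%. In genes of 500 kb to 1 Mb it was 21.7%.

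The siCtrl peaks of very long genes were overlapped by a siREXO4 peak in 12 of 46 cases (26.1%) and by a siRNaseH1 peak in 10 (21.7%), against 41.6 and 46.2% of the whole siCtrl list. Neither list had a peak at 29 of 46 (63.0%, interval 48.6 to 75.5%), compared with 45.7% of the other siCtrl peaks. None of the 6 siCtrl peaks in GPHN and RANBP2 was overlapped in a knockdown list.

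The strength of the peaks is given beside these shares. The median fold in very long genes was 5.27, 4.86 and 5.04, against 4.83, 4.98 and 5.10 in the whole lists. The median number of fragments at the summit was 11, 12 and 12, against 13, 14 and 16. A fold of at least 10 was reached by 0, 3 and 4 of the peaks (0, 4.0 and 4.12%), against 2.06, 9.14 and 8.70% of other peaks. The siREXO4 peaks were those at the DAB1, PALS1 and SOWAHC starts, and siRNaseH1 had the same 3 and a peak 13.6 kb into RANBP2. The gained peaks were also set against 2 times the fragments needed for a siCtrl call. This was reached by 6.25% in siREXO4 and 31.8% in siRNaseH1, against 38.1 and 58.5% of the others. The number needed was scaled by the lowest background of each list, not by that at each peak, which can be higher. Peaks on a high local background can thus reach it without a high fold. The part of peak strength in the low sharing was not tested.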

How the data were processed

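S9.6, input and IgG libraries of 13 samples were made. The files used are 3 narrowPeak lists, 1 per transfection, which the authors called on the merged S9.6 libraries, per the labels and file names. Per the submitters' processing notes, MACS2 2.1.0.20150731, deepTools 3.5.1, SAMtools 1.17, HISAT2 2.2.1, Trim Galore 0.6.10 and Cufflinks were used with hg38, and their options are not stated. Which library served as control, how repeated or multiply mapped reads were handled and the read depth were not given in the sources used here. Each deposited list has a score, a fold enrichment (a ratio to local background at the summit), a −log10 p, a −log10 q and a summit per peak. The deposited score was not used, and folds describe peaks within their own list. Input, IgG and per-replicate signals were not analysed here.

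Groups came from the sample titles. A peak belonged to a gene when its summit lay in the RefSeq span (GRCh38.p14). A boundary class used 2 kb. Gained peaks are knockdown peaks that share not even 1 bp with a siCtrl peak. The gene table has no strand, so starts were told from ends only for the 54 genes in the promoter table. Flanks were 1 Mb on each side, ended at the last annotated gene. Intervals are 95% Wilson intervals for shares and exact Poisson intervals for counts and densities. They cover counting error only, and no p-value is given. Fragments at a summit were solved from fold and −log10 p, and all peaks with −log10 p under 300 gave a whole number within 0.001 in −log10 p.

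The members and gene lists were chosen with earlier results of these data known. The named-gene rule took GPHN, RANBP2, the fragile site members, the 10 other members with the most peaks, the 3 genes on either side of the threshold, and genes within GPHN and RANBP2 with at least 2 peaks. Some genes that the rule names are not reported here. RBFOX1, GARIN2, OMA1 and PACRGL are named beside a result as well. The code was tested on simulated peaks. The scripts ran on SciPy 1.17.1, pandas 2.3.3, NumPy 2.4.6, Matplotlib 3.10.9 and Python 3.11.15. Alternatives comprised a −log10 q of at least 2, a fold of at least 5, lists of equal length, counting by any overlap, other boundary windows and overlaps, spans without other protein-coding genes, members without GPHN and RANBP2, and the core fragile site list. The ratio without PTPRN2 was added after seeing the data.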

Additional observations from a re-analysis of the deposited data

How the results depend on the processing

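Of 159 alternative values for 25 results, 114 stayed within the spread set by counting error or within 1.5 times the count, and 45 moved. The cause was not tested beyond what an alternative does by construction. A −log10 q of at least 2, counting peaks by any overlap, a 5 kb boundary window, a 50% overlap and the fragile site ratio without PTPRN2 moved none of the values they were run on. No paired analysis was possible because the lists were called on merged libraries, and for the same reason no replicate could be left out.

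At a fold of at least 5, the density fell to 0.286 peaks per Mb in siCtrl, 0.319 in siREXO4 and 0.539 in siRNaseH1, and the siCtrl ratio to shorter genes was 0.311. The genes with a peak numbered 20 in siREXO4 and 16 in siRNaseH1, and the share over all protein-coding genes was not computed at this fold. The siRNaseH1 boundary share was 26.5%, and the siRNaseH1 share also gained in siREXO4 13.0%. The siRNaseH1 ratio of fragile site to other genes turned to 0.837. GPHN stood at 1.63 and 13.9 per Mb and RANBP2 at 3.56 and 11.6 in siREXO4 and siRNaseH1.

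With lists of 4423 peaks each, the density was 0.143 in siREXO4 and 0.0660 in siRNaseH1, and the ratio to shorter genes 0.0510 and 0.0216. The genes with a peak numbered 9 and 3, without a computed share over all protein-coding genes. The boundary share became 38.5% and 83.3%, the siREXO4 gained share 46.2% and the siRNaseH1 share also gained in siREXO4 40.0%. GPHN stood at 1.63 and 2.44 per Mb and RANBP2 at 1.78 in both. The siRNaseH1 fragile site ratio has no value, since the other 47 genes held no peak.

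Leaving out stretches under other protein-coding genes gave 0.627 siRNaseH1 peaks per Mb, a ratio of 0.0452 and boundary shares of 5.17% in siREXO4 and 8.93% in siRNaseH1. The shares gained in both were 14.6% and 12.5%. GPHN stood at 0.0 per Mb in siCtrl and siREXO4 and 14.5 in siRNaseH1. RANBP2 stood at 5.29 in siCtrl, 2.65 in siREXO4 and 15.9 in siRNaseH1, on 2, 1 and 6 peaks. Without GPHN and RANBP2 the siRNaseH1 density was 0.485, its ratio to shorter genes 0.0349, its gained share 79.1% and the siREXO4 share gained in both 14.6%. A 1 kb window gave boundary shares of 2.17% in siCtrl and 10.3% in siRNaseH1. The core fragile site list gave ratios of 0.374 in siCtrl and 0.427 in siREXO4. Here the remaining fragile site genes were counted among the other genes, unlike in the main comparison. The fewest fragments of a siCtrl peak at the lowest background were 7, which was taken as the number needed for a siCtrl call. Read depth was not given, and its effect was not tested.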

Other observations

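On chromosome X, outside the rule, 3 protein-coding genes span 1 Mb or more. IL1RAPL1 held 1 siCtrl peak and none in the knockdown lists, and DMD, the dystrophin gene, and IL1RAPL2 held no peak in any list.

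Of the 28 listed fragile site genes, 11 are shorter than 1 Mb. They held 0.118 siCtrl, 0.473 siREXO4 and 0.591 siRNaseH1 peaks per Mb, in 1, 4 and 2 genes. NBEA, a trafficking gene, held 3 siRNaseH1 peaks. DPYD, a pyrimidine catabolism gene, NEGR1 and IMMP2L each held 1 siREXO4 peak. ESRRG, RORA, LSAMP, SDK1 and THSD7A held none.

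In GPHN, neighbouring siRNaseH1 summits stood a median of 10.5 kb apart, and in RANBP2 6.61 kb.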
